A study of Homo sapiens with 2 samples.

Results

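The cytosolic ribosomal protein genes encode the proteins of the 40S and 60S subunits of the ribosome. From a given list of 37 such genes, 23 encode proteins of the large subunit (RPL) and 14 proteins of the small subunit (RPS), out of 20090 protein-coding genes on chromosomes 1 to 22 and X. SOX9 occupancy at their transcription start sites (TSSs) was measured in HT-29, an established line from a human colon adenocarcinoma, with 1 SOX9 ChIP-seq library and 1 input library. The input is chromatin DNA sequenced without precipitation. The labels name no treatment for either library and give DMEM as the culture medium, whereas the methods of the study give McCoy's 5A. The input was downsampled, so that each library held 12320108 tags. There was 1 library per group and no replicate. No difference between ChIP and input could be set against the spread between samples. The exact intervals of ratios below cover the counting error of tags only. The Wilson intervals of shares reflect only the number of genes or peaks, which are not replicates. They do not cover the choice of the gene lists, which was made with earlier results of these data known.

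A ribosome needs about equal amounts of each of its proteins, and the genes that encode them lie scattered over the genome. Most of them are highly active in dividing cells. Their transcripts typically begin with a C followed by a run of pyrimidines, the 5′ terminal oligopyrimidine (TOP) tract, through which growth signals set their translation. SOX9 is a transcription factor of the high mobility group (HMG) box family that is active in intestinal crypt cells.

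The annotated starts of most of the listed genes carry this tract in the reference genome. The sequences show the 30 bases from 10 bases before to 20 bases from the start, on the strand of the gene in hg19, with the pyrimidine run that begins at the start in capitals. The genes are the 3 with the most SOX9 tags, RPS19, both 5S particle genes and 2 genes without a SOX9 peak.
RPL35, chr9:127624217-127624246, minus strand: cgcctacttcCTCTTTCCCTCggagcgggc
RPL19, chr17:37356526-37356555, plus strand: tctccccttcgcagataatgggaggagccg
RPL22, chr1:6259636-6259665, minus strand: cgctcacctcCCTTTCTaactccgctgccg
RPS19, chr19:42364315-42364344, plus strand: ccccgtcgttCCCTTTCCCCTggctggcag
RPL5, chr1:93297587-93297616, plus strand: gggctgtggcCCTTTTCCCaccccctagcg
RPL11, chr1:24018286-24018315, plus strand: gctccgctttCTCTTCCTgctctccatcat
RPS10, chr6:34393827-34393856, minus strand: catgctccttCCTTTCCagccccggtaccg
RPL32, chr3:12883045-12883074, minus strand: acgacccatcagcccttgcgcgccaccgtc
A C at the start followed by at least 4 further pyrimidines was found at 27 of the 37 genes (73.0%), against 4.56% of all protein-coding genes. Of the 42 other cytosolic ribosomal protein genes, 33 had it (78.6%). At the 78 mitochondrial ribosomal protein genes the share was 6.41%. At RPL19 the annotated start lies just after a pyrimidine run and at RPL32 it falls on an A, so the count depends on the annotated base.

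Nearly all of the listed ribosomal protein genes had a SOX9 peak at their promoter in HT-29 cells. A promoter peak was counted where a summit fell at most 1 kb from an annotated TSS, and 34 of the 37 genes had one (91.9%, Wilson 95% interval 78.7% to 97.2%). Among all protein-coding genes the share was 45.0%. The large and the small subunit were alike in this count, with 21 of 23 and 13 of 14 genes. The remaining genes were RPL30, RPL32 and RPS10. All 34 summits lay within 500 bp of a TSS of their gene. With that limit the share of all protein-coding genes was 42.8%, little below that at 1 kb. Within 100 bp lay 27 summits (79.4%), against 61.0% over all protein-coding genes with a promoter peak. This share was 85.7% at the other cytosolic and 81.8% at the mitochondrial ribosomal protein genes. At a limit of 100 on the MACS score (the negative log10 of the p-value times 10), 31 genes remained against 36.0% of all protein-coding genes. RPL3, RPL8 and RPL23 were the genes below it, at scores of 79.4, 97.8 and 80.6.

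Where a peak was present, its fold enrichment was near the median of promoter peaks. The strongest promoter peak of each gene held a median of 69.5 SOX9 tags (quartiles 49.2 and 103; range 39 to 203), against 59 (quartiles 41 and 86) over all protein-coding genes with a promoter peak. The median fold enrichment over the local input was 9.41 (quartiles 7.89 and 13.7; range 6.06 to 61.2), against 10.1 (quartiles 7.67 and 14.3). Of the 34 peaks, 20 were above the tag median and 14 above the fold median of all such genes. Against protein-coding genes at large, the share with a peak was higher and the median fold was slightly lower. The empirical FDR was 0 for 32 of the 34 peaks and at most 0.02%.

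**Figure D1:**
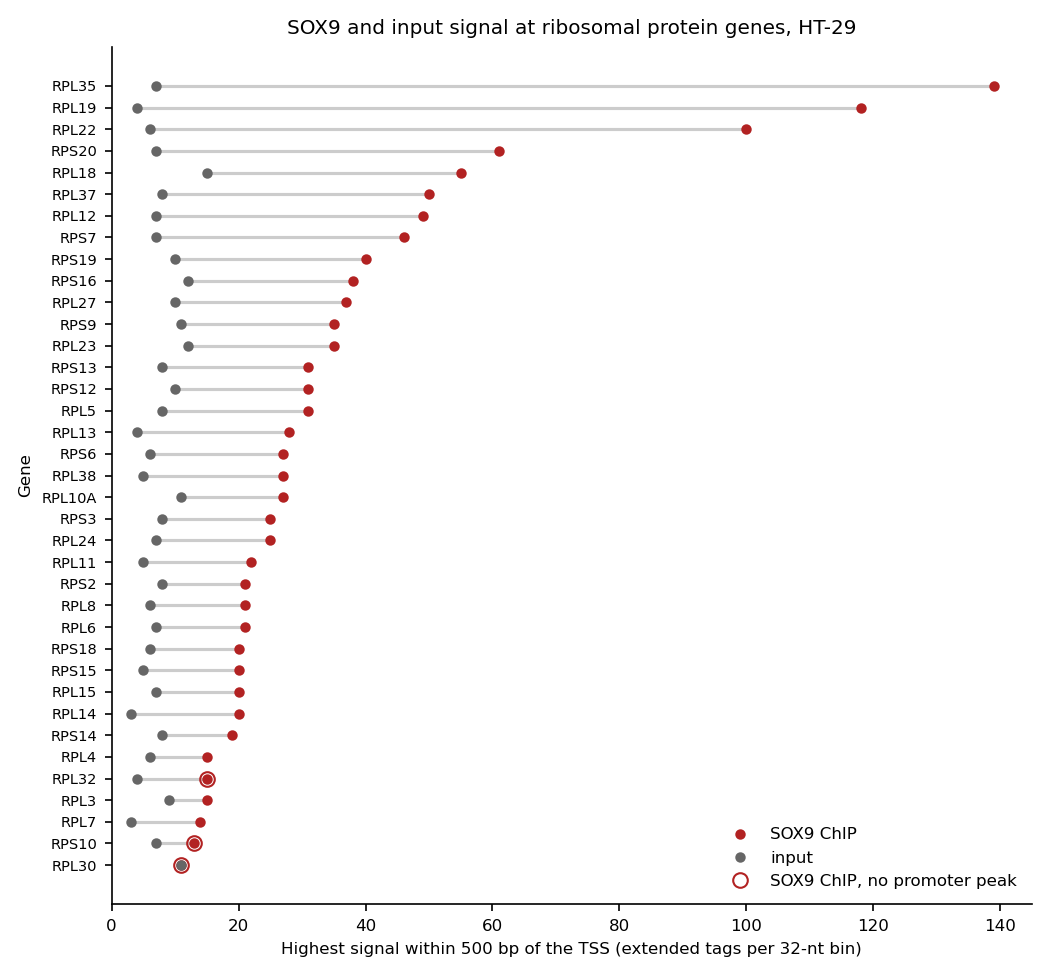
Highest SOX9 (red) and input (grey) signal within 500 bp of the reference TSS of each of the 37 genes, in extended tags per bin of 32 nt; open circles are the genes without a promoter peak. RPL35, RPL19 and RPL22 stand apart at 139, 118 and 100 extended tags, no other gene exceeds 61, and at RPL30 both libraries reach 11.

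At the TSS itself, SOX9 signal exceeded input at most of the genes. The signal counts tags, extended to 150 bp, that cover a bin of 32 nt, and the reference TSS is that of the canonical GENCODE transcript. In the bin that holds it, the median was 19 extended tags for SOX9 (range 6 to 95) and 4 for the input (range 0 to 12). Over all protein-coding genes the medians were 5 and 1. With a pseudocount of 1, SOX9 was at least 2 times the input at 33 of the 37 genes, against 57.1% of all protein-coding genes. The other 4 were RPL10A, RPL23, RPL30 and RPS10. The median log2 ratio was 2.12, on the log2(value + 1) scale, and 1.00 over all protein-coding genes. It was 2.13 at the 78 mitochondrial and 2.06 at the 42 other cytosolic ribosomal protein genes. Their median signals were 19 and 17 extended tags for SOX9 and 4 for the input in both lists. SOX9 was at least 2 times the input at 92.3% and 88.1% of them, against 89.2% of the 37 genes. The exact 95% interval of the ratio lay above 1 at 28 of the 37 genes, against 32.6% of all protein-coding genes. The 9 whose interval reached 1 were RPL4, RPL7, RPL8, RPL10A, RPL23, RPL27, RPL30, RPS2 and RPS10.

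The mean SOX9 signal over the 37 genes was highest at −64 bp from the reference TSS, with 30.9 extended tags per bin. It stayed at or above 0.5 times this level from −224 to 64 bp. The input also rose at these promoters, to 4.86 extended tags at −32 bp from a level of 0.998 at 1.5 to 2 kb away, where SOX9 had 1.36. Over all protein-coding genes the SOX9 maximum was 10.7 and the input maximum 2.17, both at −64 bp. Without RPL35, RPL19 and RPL22 the maximum over the genes was 25.2. Within 500 bp of the TSSs, SOX9 held 2847 tags and the input 751, a ratio of 3.79, against 3.13 over all protein-coding genes. Both libraries were thus higher at ribosomal protein genes than at the average gene. The SOX9 and input maxima were 27.6 and 4.29 at the 78 mitochondrial ribosomal protein genes. At the 42 other cytosolic ones they were 20.1 and 4.64. The pooled ratio of the 37 genes was slightly above the one over all genes. It was 3.08 at the 42 other cytosolic ribosomal protein genes, 3.68 at the mitochondrial ones and 3.73 at the 55 translation initiation factor genes. RPL35, RPL19 and RPL22 raised the pooled ratio, with 204, 191 and 179 SOX9 tags against 17.2, 15.4 and 18.4 input tags. The ratio without these genes is not given. The part of the raised input in the peaks was not tested.

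Summits lay just upstream of the TSSs. Relative to the nearest TSS of the gene, the summits had a median at −49 bp (quartiles −86 and −16 bp), as had those of all protein-coding genes with a promoter peak (quartiles −119 and 1 bp). Upstream lay 30 of the 34 summits (88.2%), against 73.8% of all. This share was 77.1% at the other cytosolic and 77.3% at the mitochondrial ribosomal protein genes, and 77.5% at the initiation factor genes. In the small subunit all 13 summits were upstream of the nearest TSS, that of RPS13 by only 1 bp. The 4 downstream summits belonged to RPL3 (6 bp), RPL24 (35 bp), RPL38 (32 bp) and RPL7 (128 bp). Relative to the canonical TSS alone, the median was −71.5 bp, and the summit of RPS13 lay 19 bp downstream.

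**Figure D2:**
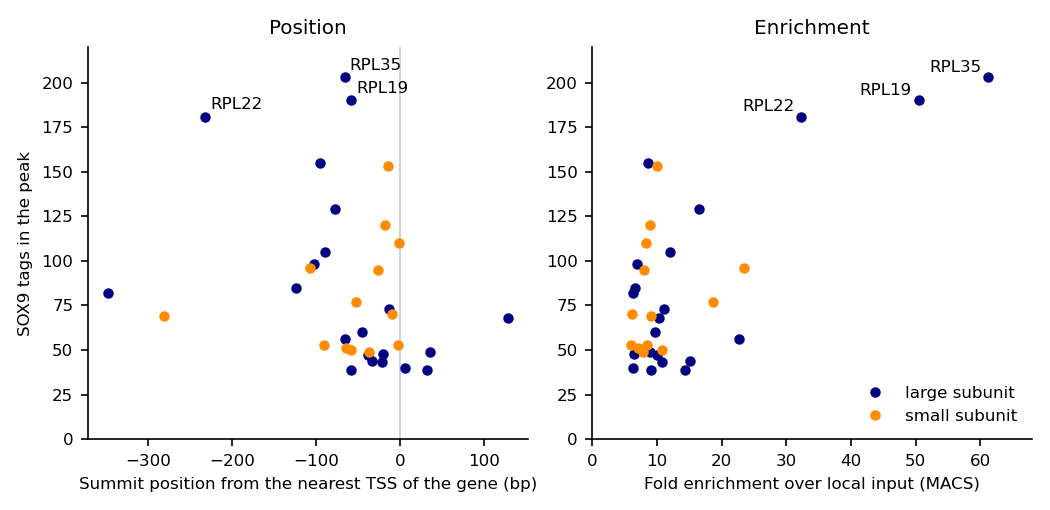
SOX9 tags in the strongest promoter peak of 34 genes against the position of its summit from the nearest TSS of the gene in bp (left) and against its fold enrichment over the local input (right), with large subunit genes in blue and small subunit genes in orange. RPL35, RPL19 and RPL22 combine 181 to 203 tags with folds above 30, and RPL18 and RPS19, at 155 and 153 tags, stay at folds of 8.64 and 9.95.

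In the large subunit, RPL35, RPL19 and RPL22 had by far the strongest SOX9 peaks. RPL35, whose protein lies near the exit of the peptide tunnel, held 203 tags at a fold enrichment of 61.2 (chromosome 9, 127623772 to 127624840). Its signal reached 139 extended tags for SOX9 and 7 for the input. RPL19 held 190 tags at a fold of 50.4 (chromosome 17, 37356016 to 37356978) with signals of up to 118 and 4. RPL22, which encodes an RNA-binding protein that is dispensable for translation in many cells, held 181 tags at a fold of 32.3 (chromosome 1, 6259343 to 6260341) with signals of up to 100 and 6. Its summit lay 232 bp upstream of the TSS, so that the bin at the TSS held only 16 SOX9 tags against 4 for the input. At RPL35 and RPL19 that bin held 82 and 95 against 7 and 4. Among all protein-coding genes with a promoter peak, 4.79% had at least as many tags as RPL22 and 5.97% had a fold above 30.

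RPL35 and RPL19 had CCAAT, the core that the factor NF-Y binds, within 100 bp of the summit. RPL22 had none within that distance, although its promoter, which lies inside its peak, holds the string. The sequences are the 30 bases around the CCAAT nearest to the summit at the first pair of genes, with CCAAT or its complement ATTGG in capitals, and the 30 bases around the summit at RPL22, on the strand of the gene in hg19.
RPL35, chr9:127624277-127624306, minus strand: ccgctgcggcgccATTGGccgcgcccgccg
RPL19, chr17:37356495-37356524, plus strand: aatacggacgaaATTGGagcagggtttggg
RPL22, chr1:6259873-6259902, minus strand: cagtctggcttcccccctccgatcgttcgc
The centre of the CCAAT lay 35 bp from the summit and 55 bp upstream of the TSS at RPL35, and 31 bp from the summit and 27 bp upstream of the TSS at RPL19. None of the 8 strings searched lay within 100 bp of the summit of RPL22.

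The next large subunit genes had many tags but a moderate fold. RPL18 held 155 tags at a fold of 8.64, with signals of up to 55 for SOX9 and 15 for the input, the highest input among the 37 genes. RPL12, whose protein belongs to the stalk base, held 129 tags at a fold of 16.4. RPL37 held 105 tags at 11.99 and RPL23 held 98 at 6.94. At RPL23 the bin of the TSS had 12 SOX9 and 9 input tags, a ratio of 1.33 (exact 95% interval 0.516 to 3.58), and its peak was one of the 3 below the stricter limit. RPL5 and RPL11, which form a particle with 5S rRNA and bind the p53 regulator MDM2, had weaker peaks. RPL5 held 60 tags at a fold of 9.74, with 27 SOX9 and 8 input tags at the TSS (ratio 3.38, interval 1.49 to 8.60). RPL11 held 43 tags at 10.7, with 18 and 2 at the TSS (ratio 9, interval 2.15 to 80.0). These intervals overlap, so the TSS ratios of both genes could not be told apart at this depth.

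In the small subunit, RPS19 had the peak with the most tags. RPS19, the gene most often mutated in Diamond-Blackfan anemia, an inherited failure of red cell production, held 153 tags (chromosome 19, 42363346 to 42364796) at a fold of 9.95. At its TSS, 15 bp from the summit, SOX9 had 40 extended tags and the input 8 (ratio 5, exact 95% interval 2.31 to 12.4). RPS9 held 120 tags at a fold of 8.86 and RPS13 held 110 at 8.29. The highest fold of the small subunit was that of RPS20, at 23.4 with 96 tags and signals of up to 61 and 7, followed by RPS7, at 18.6 with 77 tags. The remaining 8 small subunit peaks had 49 to 95 tags. The median was 70 tags for the small and 68 for the large subunit, with median folds of 8.47 and 10.3. Of 9 listed genes known to be mutated in Diamond-Blackfan anemia (RPS7, RPS10, RPS19, RPL5, RPL11, RPL15, RPL18, RPL27 and RPL35), 8 had a promoter peak (88.9%, against 91.9% of the 37 genes and 45.0% of protein-coding genes), with a median of 75 tags (range 39 to 203). The exception was RPS10.

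The weakest promoter peaks by tags were those of RPL15 and RPL38 (39 tags each), RPL3 (40), RPL11 (43) and RPL14 (44). Few tags did not always mean a low fold, since RPL38 and RPL14 reached 14.3 and 15.1, whereas RPL3 had 6.30. The regional input was 0.622 times the autosomal median of 1 Mb windows at RPL14 and 0.871 times at RPL38. It was 0.719 times at RPL3, 0.775 times at RPL15 and 1.23 times at RPL11.

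The 3 genes without a promoter peak had similar SOX9 signals and differed more in the input. At RPL32, SOX9 had 14 extended tags and the input 1 (ratio 14, exact 95% interval 2.13 to 592). At RPS10 they had 13 and 7 (ratio 1.86, interval 0.689 to 5.50), and at RPL30 they had 11 and 8 (ratio 1.38, interval 0.504 to 3.94). The intervals overlap, and that of RPL32 rests on 1 input tag. In the single bin of the TSS the interval of RPL32 lay above 1 although no peak was called, and those of RPS10 and RPL30 reached 1. Within 500 bp, SOX9 held 32.6 tags at RPL32, 32.8 at RPS10 and 33.0 at RPL30, and the input held 11.6, 13.2 and 19.6, so that SOX9 was above the input at each of them. The SOX9 signals of RPL32 and RPS10 were not far from those of RPL3, whose peak had 15 and 4 at the TSS. The nearest SOX9 summits lay 31292 bp from the TSS of RPL32, 33367 bp from that of RPS10 and 18988 bp from that of RPL30.

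RPL6 and RPL7 were the genes with more than 1 promoter peak. At RPL6 a peak of 47 tags lay at −68 bp from the canonical TSS, and another of 44 tags at a fold of 14.8 lay at −9243 bp, 10 bp from the start of an alternative transcript. At RPL7 a peak of 41 tags lay 146 bp downstream of the canonical TSS. The stronger one, with 68 tags at 10.3, lay at −677 bp from it, 128 bp inside an alternative transcript and 292 bp from the TSS of RDH10, which encodes a retinol dehydrogenase. The bin at the canonical TSS of RPL7 held 6 SOX9 tags and 1 input tag.

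At 13 of the 34 genes with a peak, the start of another protein-coding or long noncoding RNA gene lay within 1 kb of the summit, in each case on the opposite strand. At 6 genes this other start was the nearer one. The same shares over all promoter peaks were not counted, so whether these counts are high for promoters was not tested. For RPL12 the summit lay 5 bp from the TSS of LRSAM1 and 78 bp from that of RPL12. For RPL18 it lay 12 bp from SPHK2 and 95 bp from RPL18, and for RPS18 36 bp from VPS52 and 64 bp from RPS18. For RPL4 it lay 86 bp from ZWILCH and 348 bp from RPL4, and RPS20 and RPS2 had the noncoding RNA genes CERNA3 and SNHG9 at 26 and 37 bp. RPL35 shared its peak with ARPC5L, a gene of the actin-nucleating Arp2/3 complex, whose TSS was 83 bp from the summit. At these promoters the tags cannot be assigned to either gene. Without the 6 genes, a step chosen after seeing the data, 28 genes had a peak, with a median of 68.5 tags.

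The number of tags moved with the input signal of the region, the fold enrichment less so. The input within 500 kb to either side of the TSS ranged from 0.622 times the autosomal median at RPL14 to 1.88 times at RPL23, and was 1.87 times at both RPL18 and RPS19. Across the 34 genes, Spearman's rho with this regional input was 0.534 for tags and −0.177 for fold enrichment. Between tags and the width of the peak it was 0.723. What sets the regional input was not tested. The points share the same pair of libraries, and the fold is itself divided by the local input. At RPL35, RPL19 and RPL22, the genes with the most tags, the regional input was 1.16, 1.43 and 0.981 times the median.

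Around the SOX9 summits of the ribosomal protein genes, the ETS core CCGGAA was frequent and the SOX9 consensus was not found. Within 100 bp of the summit, on either strand, CCGGAA was present at 14 of the 34 peaks (41.2%, Wilson 95% interval 26.4% to 57.8%) and at 24.5% of the 8654 promoter peaks of all protein-coding genes. CCAAT was present at 9 (26.5%, 14.6% to 43.1%) and at 30.6%. The SP1 core GGGCGG was present at 21 (61.8%, 45.0% to 76.1%) and at 61.3%. The YY1 core ATGGCGG was present at 3 (8.82%) and at 8.39%, TATAAA at 3 and at 2.83%, and the E-box CACGTG at 1, RPL23, and at 8.30%. The SOX9 consensus (CAA followed by A or T and by G, and preceded by 2 bases that are each A or T) was at 0 of 34, which allows a share of up to 8.82% by a limit of 3 counts or up to 10.2% by the Wilson interval, and at 7.68% of all promoter peaks. At this number of peaks its absence could not be told from the share of all promoters, and over whole peak intervals it was present at 13 of 34 (38.2%) and at 36.2% of all. Matches of different strings may overlap, and a match is not evidence of binding.

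The promoter sequences themselves, taken from 250 bases before to 50 bases after the canonical TSS, were searched without reference to the summits. CCGGAA was present in 25 of the 37 promoters (67.6%), in 22.7% of those of all protein-coding genes and in 60.3% of those of mitochondrial ribosomal protein genes. In the 42 other cytosolic ribosomal protein genes its share was 47.6%. CCAAT was present in 11 (29.7%) and in 35.9% of all. Among the 34 peaks, the 9 with CCAAT had a median of 56 tags (range 39 to 203) and a median fold of 14.3, and the 25 without had 73 tags (range 39 to 181) and a fold of 9.05. RPL35 and RPL19 thus stood at the top of a group with widely spread values, with RPL38, RPL14, RPL24, RPS2, RPL13, RPL5 and RPS9 as its other members.

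The CCAAT of 4 of these genes lay within 3 bp of the summit. They are shown because the string lies at or next to the summit, with 30 bases each on the strand of the gene in hg19 and CCAAT or ATTGG in capitals.
RPL13, chr16:89627005-89627034, plus strand: ttcggggctctgATTGGtcagagcgcccgg
RPL14, chr3:40498734-40498763, plus strand: cgcacgcaccaaCCAATcggtgctcacgtc
RPL24, chr3:101405479-101405508, minus strand: cgacccgtggttcCCAATccgcttacatcc
RPS2, chr16:2014922-2014951, minus strand: gggcaccgcggagCCAATcacaggttgtct
Their distances were 0 bp at RPL13, 1 bp at RPL14, 2 bp at RPL24 and 3 bp at RPS2. Their peaks held 56, 44, 49 and 53 tags, far fewer than those of RPL35 and RPL19, at folds of 22.7, 15.1, 8.97 and 6.06.

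A palindrome of 10 bases lay within 100 bp of the summit at RPS19 and RPS6 (5.88% of 34 peaks, Wilson 95% interval 1.63% to 19.1%), against 0.636% of all promoter peaks. The sequences spell it in capitals, on the strand of the gene in hg19.
RPS19, chr19:42364266-42364295, plus strand: ctttcggaacTCTCGCGAGAccctacgccc
RPS6, chr9:19380267-19380296, minus strand: cttctgctcaTCTCGCGAGAactgaaagcg
RPS6, whose protein is phosphorylated when growth signals are active, held 50 tags at a fold of 10.7, and RPS19 held 153 tags at 9.95.

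The cytosolic ribosomal protein genes outside the list had peaks about as often. Of 42 such genes, 35 had a promoter peak (83.3%, Wilson 95% interval 69.4% to 91.7%), with a median of 59 tags and a median fold of 8.26. The highest tag numbers were those of RPL13A (162 tags, fold 23.05), RPL21 (139, 5.29) and RPL10 (135, 7.44). No gene among them reached the folds of RPL35, RPL19 and RPL22, since the highest was 27.3 at RPLP0, the stalk protein. Of 8 ribosomal protein paralogs, 4 had a peak, namely RPS27L (78 tags), RPL22L1 (73), RPL36AL (55) and RPL26L1 (44). RPL3L, a muscle form, and RPL10L and RPL39L, testis forms, had 0 or 1 SOX9 tags in the bin of the TSS, and RPL7L1 had 8 with 3 for the input.

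Compared with genes of related function, the share with a promoter peak was 84.6% of 78 mitochondrial ribosomal protein genes (75.01% to 91.0%) and 72.7% of 55 translation initiation factor genes (59.8% to 82.7%). The intervals of these lists overlap that of the 37 genes, and each share was above the 45.0% of protein-coding genes. None of these differences was tested, since genes measured in the same pair of libraries are not replicates. Median folds were 10.5 and 9.64, close to the 9.41 of the ribosomal protein genes.

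Ribosomal protein pseudogenes, which are mostly copies of spliced transcripts that lack the promoter of their parent gene, carried few SOX9 peaks. Of 1492 annotated copies, 12 had a summit within 1 kb of their start (0.804%, Wilson 95% interval 0.461% to 1.4%). These were 11 distinct peaks, and 1 summit lay within 100 bp of a pseudogene start. The strongest peaks were near RPL36AP44 (84 tags), RPL13P5 (62), RPS27P26 (54) and RPS29P16 (46), and at 3 of these a protein-coding TSS was nearer, 27 bp away at ANXA2, 19 bp at LRRC23 and 3 bp at PSMC2. At RPS27P26, and at the weaker peaks other than that of RPL29P20, the pseudogene start was nearer. The nearest protein-coding TSS was then 4729 to 36864 bp away. Over the pseudogenes SOX9 averaged 0.498 extended tags per bin and the input 0.537. The authors kept unique alignments only, and reads that match a gene and its copies equally are lost. In the 37 genes the input averaged 1.26 extended tags per bin in exons and 1.44 in introns, a ratio of 0.875, whereas over all protein-coding genes the ratio was 1.17. The effect of the copies on the tag numbers of the promoter peaks was not tested.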

How the data were processed

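Single-end reads of 50 nt were aligned by the authors to hg19 with BWA. Reads with several matches and duplicates were dropped, and the input was thinned at random until it equalled the ChIP in alignments. The authors called peaks against the input in MACS, version 1.3.7.1, at a p of 1e-07 and an mfold of 16. The deposited peak table gives tags as counts in the ChIP, the score as −10 times log10 of the MACS p-value, the fold enrichment as a ratio to the local input, and the FDR as an empirical percent. The deposited signal maps hold, for each 32-nt bin, how many tags cover it after extension to 150 bp, and apart from the thinning they are not scaled.

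GENCODE release 44 mapped to hg19 gave TSSs and the canonical transcript. The members and gene lists were chosen with earlier results of these data known. A gene had a promoter peak when a summit lay within 1 kb of any of its TSSs, and its peak with the most tags was described. Values named are those of the 10 genes with the most tags, the 5 with the fewest, those with 0 or over 1 promoter peak, RPL5, RPL11 and RPS19, and up to 4 of each other list; further genes were named after their values were seen, and some genes that the rule names are not reported here. Ratio intervals are exact (conditional binomial) and shares have Wilson 95% intervals. With 1 library per group no test was made. Alternatives were other windows, a stricter score, the interval midpoint, other transcripts and pseudocounts, and other motif windows. The procedures were tested on simulated data. Scripts ran in Python 3.11.15 and used pandas 2.3.3, SciPy 1.17.1 and NumPy 2.4.6, with figures from matplotlib 3.10.9. The deposited BED file repeats the peak table and was not used.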

Additional observations from a re-analysis of the deposited data

How the results depend on the processing

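The count of 34 ribosomal protein genes with a promoter peak was 34 with limits of 500 bp and 3 kb. It was also 34 with interval midpoints, with protein-coding transcripts and with the canonical transcript, and 31 at the stricter score. Among all protein-coding genes the share moved from 45.0% to 42.8% at 500 bp and 47.7% at 3 kb. It was 41.0% with the canonical transcript and 36.0% at the stricter score. The median of 69.5 tags stayed between 68.5 and 71.5. The median summit position of −49 bp became −71.5 bp from the canonical TSS and −16.5 bp with interval midpoints. The median log2 ratio at the TSS, 2.12, was 1.58 with a pseudocount of 3. Motif counts depended on the window. Within 50 bp of the summit CCGGAA was at 9 peaks (26.5%, Wilson interval 14.6% to 43.1%, against 14.8% of all promoter peaks), GGGCGG at 10 (29.4%, against 39.5%) and CACGTG at 0 (against 4.82%). Over whole intervals, which are longer, CCAAT was at 21 of 34 peaks (61.8%, against 61.5% of all), CCGGAA at 27 (79.4%, against 50.99%), ATGGCGG at 13 (38.2%, against 22.3%), CACGTG at 9 (26.5%, against 22.5%), TATAAA at 7 (20.6%, against 16.4%), the 10-base palindrome at 4 (11.8%, against 1.16%) and the SOX9 consensus at 13 (38.2%, against 36.2%). With 1 library per group, biological and technical variation cannot be told apart from the values given, and the cause of the changes in summit position was not tested.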
